A study of Mus musculus with 6 samples.

Results

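Aminopeptidases remove single amino acids from the N-terminal end of proteins and peptides, and most of them are zinc enzymes. In the cytosol they finish the breakdown of peptides that the proteasome releases, and in the endoplasmic reticulum they trim peptides for display on MHC class I molecules. The genes described here are 10 aminopeptidases chosen by name around Npepl1, an aminopeptidase-like relative of the leucine aminopeptidase Lap3. Npepl1 itself had been picked because it was among the largest decreases of the Tamoxifen against Vehicle comparison in these same arrays. The values of that comparison therefore chose it, and they are given below as a description without a test. A probe set carrying 1 gene symbol was found for 9 of the 10 genes, of 19938 genes with such a probe set in all, and all 9 passed the filter on dim genes together with 13956 genes tested in total. Lnpep, a membrane aminopeptidase of insulin-responsive vesicles, had no probe set carrying 1 gene symbol in the annotation used here and has no value.

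The arrays came from a study of Zfx, a zinc finger transcription factor, in mouse T cell acute lymphoblastic leukemia (T-ALL) driven by Notch. All leukemias had been started by retroviral delivery of the intracellular part of Notch (Notch-IC) into hematopoietic progenitors that carried a tamoxifen-inducible Cre-ER transgene and the conditional allele Zfx fl/y. The 3 independent leukemias, lines 14843, 14844 and 14846, were grown in sublethally irradiated secondary recipients, which from day 10 received Vehicle or Tamoxifen by gavage, the latter at 5 mg a day for 3 days. Leukemia cells positive for GFP were sorted 48 h after the last dose, and each line gave 1 array labelled Vehicle (genotype ZFX flox) and 1 labelled Tamoxifen (genotype ZFX null), so n = 3 per group. The promoter that drives Cre-ER, the age and strain of the recipients, and the number of mice behind each array are unstated in the labels. Every array came from cells with both Cre-ER and the floxed allele. The drug, the activity of Cre and any loss of Zfx therefore cannot be told apart. Zfx itself had a fitted log2 difference of 0.07 ± 0.06 (SE, n = 3 per group) on its 1 probe set, which need not lie in the deleted part and so does not check the labels.

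Levels below are log2 values of the deposited RMA intensities, and a difference is Tamoxifen minus Vehicle within the same line. All 11 T lineage markers with a probe set carrying 1 gene symbol were above the dim filter. Cd3e, a chain of the T cell receptor complex, lay at 13.22 ± 0.05 in Vehicle and 13.19 ± 0.07 in Tamoxifen arrays (SD, n = 3 per group). Over the whole T lineage list, the summed linear intensity was 51429.9 to 56284 in Vehicle and 48078 to 54427 in Tamoxifen arrays, and its median log2 difference was -0.03. None of the 11 was called by limma, and 2 had an unadjusted p under 0.05, Ptcra at -0.27 and Cd2 at -0.19. The share of all tested genes with an unadjusted treatment p under 0.05 was not counted, so nothing is read from such counts here or below. Of 10 monocyte and macrophage markers 5 were dim, among them the defining receptor gene Csf1r at 6.34 ± 0.04 in Vehicle and 6.34 ± 0.01 in Tamoxifen arrays. Their summed linear intensity was 2047 to 2239 in Vehicle and 2352 to 2552 in Tamoxifen arrays, which did not overlap, and the median log2 difference of the 5 tested markers was 0.24. Of these 0 were called by limma while 3 had an unadjusted p under 0.05, Ctss at 0.63, Itgam at 0.29 and Lyz2 at 0.24. Of the 5 tested differences the lowest was -0.09, and the others were all positive, up to 0.63. Ctss gave -0.01 in line 14846. The part of such cells in the aminopeptidase values was not tested. The summed intensities of neutrophil, B cell, erythroid and stromal markers overlapped between the groups.

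The promoters of the 3 members called lower in Tamoxifen arrays and of Lap3 are shown first, so that their base composition can be compared. Each sequence is the RefSeq window of GRCm38.p6 from 250 bases before to 50 bases after the gene's start, in the direction of transcription, and capitals mark CG dinucleotides (CpG). Npepl1 is read from the plus strand at chr2:174110101-174110400. Npepps is on the minus strand at chr11:97280527-97280826 and Rnpepl1 on the plus strand at chr1:92910575-92910874. Lap3, the relative of Npepl1 with a difference near 0, is on the plus strand at chr5:45493124-45493423.
Npepl1: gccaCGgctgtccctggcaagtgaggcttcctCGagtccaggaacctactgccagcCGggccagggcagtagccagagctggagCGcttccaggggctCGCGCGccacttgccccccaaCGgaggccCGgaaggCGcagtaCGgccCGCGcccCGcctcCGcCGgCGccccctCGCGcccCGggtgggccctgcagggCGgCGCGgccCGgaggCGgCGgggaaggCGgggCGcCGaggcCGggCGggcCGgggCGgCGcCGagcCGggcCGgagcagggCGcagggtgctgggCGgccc
Npepps: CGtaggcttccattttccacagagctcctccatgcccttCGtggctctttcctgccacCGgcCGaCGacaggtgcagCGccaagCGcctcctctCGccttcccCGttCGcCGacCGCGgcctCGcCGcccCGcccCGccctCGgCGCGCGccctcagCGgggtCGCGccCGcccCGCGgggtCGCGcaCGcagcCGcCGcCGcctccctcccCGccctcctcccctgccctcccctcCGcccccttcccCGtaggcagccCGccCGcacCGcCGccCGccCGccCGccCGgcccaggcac
Rnpepl1: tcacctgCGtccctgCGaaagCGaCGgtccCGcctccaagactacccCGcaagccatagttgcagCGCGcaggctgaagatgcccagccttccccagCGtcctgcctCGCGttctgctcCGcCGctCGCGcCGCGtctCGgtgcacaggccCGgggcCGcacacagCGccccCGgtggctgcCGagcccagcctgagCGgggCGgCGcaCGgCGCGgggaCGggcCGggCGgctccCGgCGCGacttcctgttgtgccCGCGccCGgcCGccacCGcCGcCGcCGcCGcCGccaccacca
Lap3: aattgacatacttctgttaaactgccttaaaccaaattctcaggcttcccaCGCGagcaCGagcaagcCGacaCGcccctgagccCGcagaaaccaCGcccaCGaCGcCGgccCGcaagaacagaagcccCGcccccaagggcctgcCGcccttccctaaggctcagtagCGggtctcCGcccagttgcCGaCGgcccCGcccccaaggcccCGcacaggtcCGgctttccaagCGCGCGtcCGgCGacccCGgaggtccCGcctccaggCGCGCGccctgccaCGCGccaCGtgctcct

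The window of Npepl1 held 39 CpG and was 80.7% G or C. Rnpepl1 held 45 CpG at 76.7%, Npepps held 44 at 79.0%, and Lap3 held 33 at 68.3%. Metap1, which was not called, held 39 CpG at 78.7%, as many as Npepl1 and a higher share of G and C than Rnpepl1. Of all 32851 windows in the table, 4.45% had at least as many CpG as Npepl1, 2.25% as many as Npepps, 1.93% as many as Rnpepl1 and 8.56% as many as Lap3. These are not shares of tested genes, which had more CpG. The median was 7.0 over all windows and 21.0 over tested genes, with an upper quartile of 29.0, taking the window with most CpG per tested gene. The other measured members spanned from 12 CpG in Erap1 and 14 in Rnpep to the 39 in Metap1, with 19 and 27 in the alternative windows of Dnpep and 19 and 24 in those of Xpnpep1. Rnpepl1 and Npepps thus had the most CpG of the 9 genes, and Npepl1 shared the next place with Metap1. These counts were made after the differences were known and are given as a description, with no test. Among all tested genes with a window, taking the window with most CpG per gene, the median was 24.5 CpG for 568 genes called lower, 22.0 for 148 called higher and 20.0 for 10315 not called. The letters AGGCCT, the core of the motif published for Zfx and the same on both strands, were searched in the same windows. They occurred in 10.3% of all windows and in 1 of the 11 windows of the measured members, that of Metap1. The share over tested genes alone was not counted, and a match or its absence in this window is only a description.

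**Figure D1:**
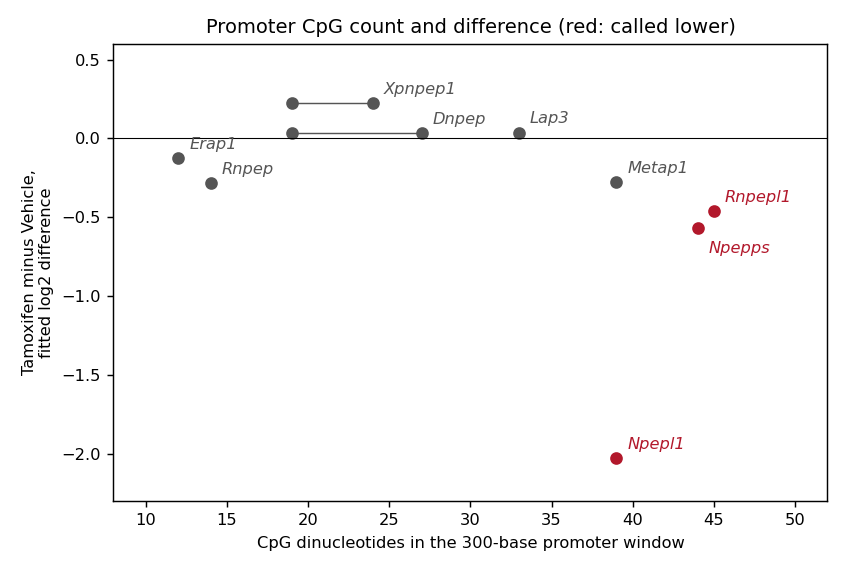
Fitted log2 difference, Tamoxifen minus Vehicle, against the number of CpG in the 300-base promoter window of the 9 measured aminopeptidase genes; points joined by a line are alternative windows of 1 gene, and red marks genes called lower by limma. Npepl1 at 39 CpG lies far below Metap1 at the same count, and Lap3 at 33 CpG lies near 0.

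Npepl1 had by far the largest decrease of the measured members in arrays labelled Tamoxifen. Its level was 10.59, 10.73 and 10.88 in the Vehicle arrays of lines 14843, 14844 and 14846. In the Tamoxifen arrays of the same lines it was 8.59, 8.72 and 8.79. Every Tamoxifen array was below every Vehicle array, and the gap between the groups was wider than the spread within either of them. The group means were 10.73 ± 0.14 and 8.70 ± 0.10 (SD, n = 3 each). Fitted over the lines, the difference came to -2.03 ± 0.05 (SE), so the intensity in Tamoxifen arrays was 24.5% of that in Vehicle arrays. The lines repeated it closely, with 25.1%, 24.9% and 23.5% left in lines 14843, 14844 and 14846. Npepl1 had the fifth lowest difference of the 13956 tested genes, of which 59 (0.423%) were below -1. In these bulk arrays, fewer cells with the RNA and less RNA per cell cannot be told apart.

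**Figure D2:**
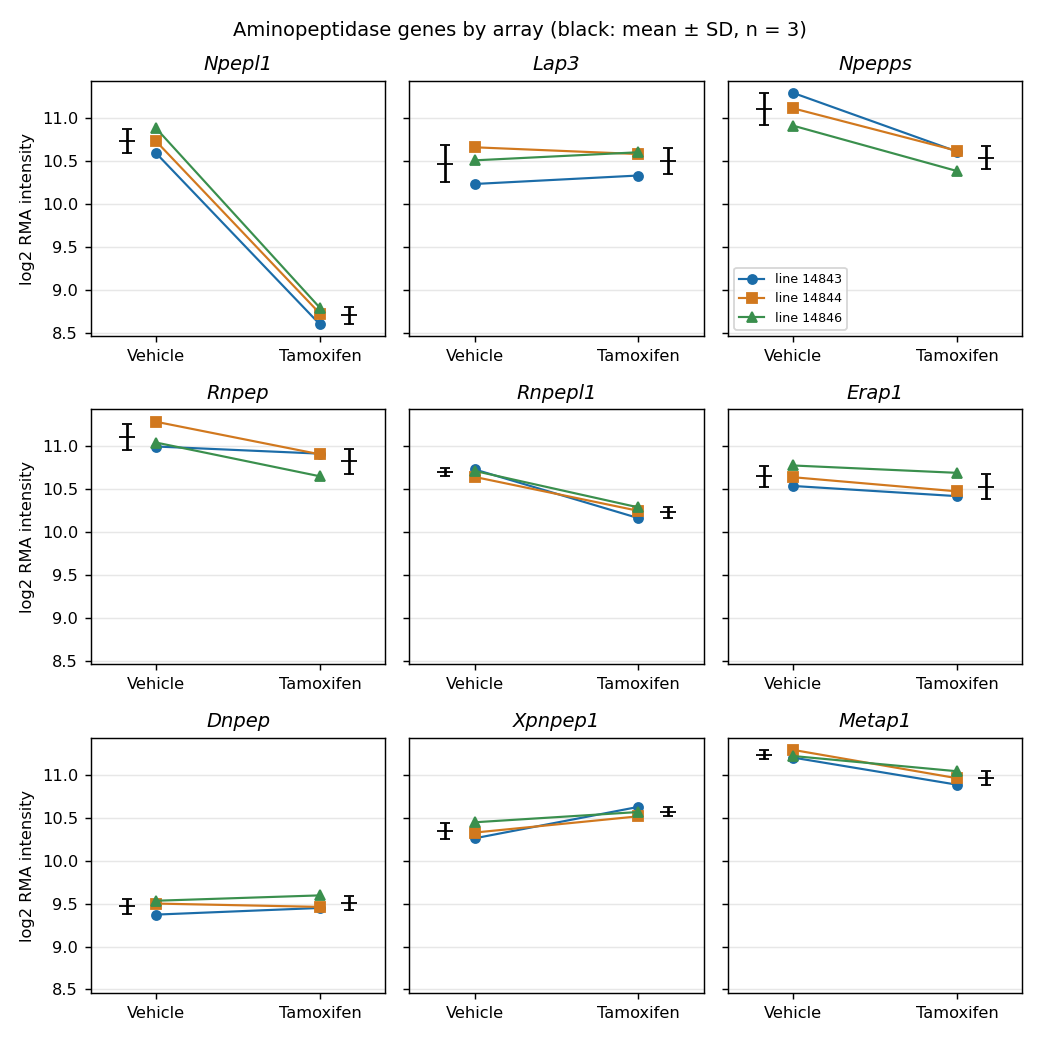
Log2 RMA intensity of 9 aminopeptidase genes in each array, with Vehicle and Tamoxifen arrays of a line joined and the mean ± SD of each group in black (n = 3). Npepl1 drops from 10.59 to 10.88 in Vehicle arrays to 8.59 to 8.79 in Tamoxifen arrays, while the groups overlap for Lap3, Dnpep and Erap1; heights of different genes are not comparable, since probe sets differ in how they respond.

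Lap3 encodes the cytosolic leucine aminopeptidase and is the member closest in kind to Npepl1. Its Vehicle levels were 10.23, 10.66 and 10.51 and its Tamoxifen levels 10.33, 10.58 and 10.60 in lines 14843, 14844 and 14846. The groups overlapped, and the lines went opposite ways, at 0.10, -0.08 and 0.09. The fitted difference was 0.04 ± 0.06 (SE), with a 95% interval from -0.11 to 0.19. Within the lines, Npepl1 lay below Lap3 by -2.09, -1.93 and -2.18 in the difference between treatments, a mean of -2.07 ± 0.13 (SD over 3 lines).

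Set against all 8 other measured members, the gap was of similar size. The median difference of the other members was -0.10, -0.25 and -0.13 in lines 14843, 14844 and 14846. Npepl1 minus that median was -1.89, -1.76 and -1.96, a mean of -1.87 ± 0.10 (SD over 3 lines). From the fitted differences the same gap was -1.83. The next lowest member was Npepps in each line, and Npepl1 minus Npepps was -1.31, -1.51 and -1.56. As Npepl1 was chosen for its decrease, these gaps describe the choice and carry no test.

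**Figure D3:**
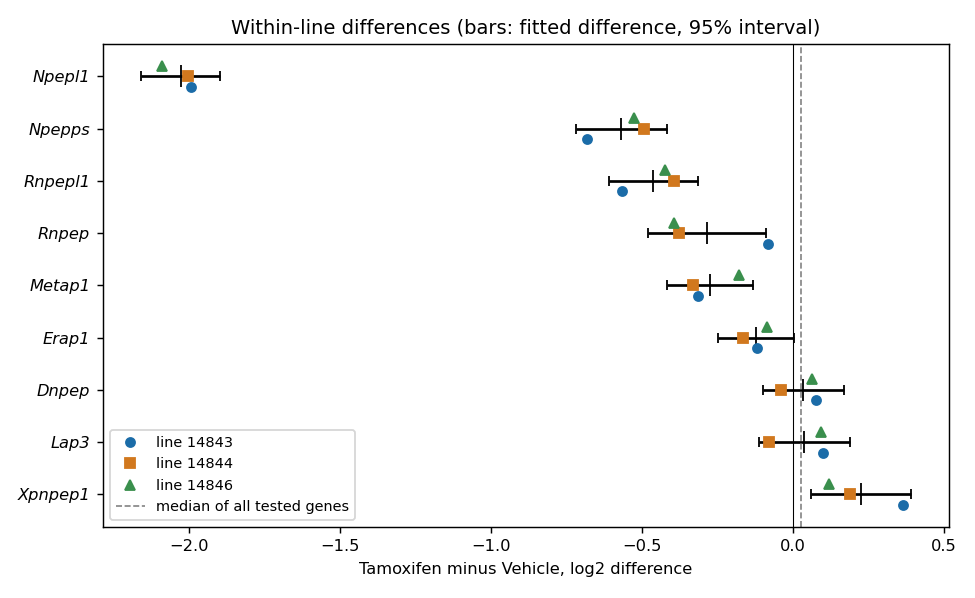
Tamoxifen minus Vehicle on the log2 scale for 9 aminopeptidase genes, with 1 symbol per line, the fitted difference and its 95% interval in black, and the median of all tested genes (0.03) dashed. Npepl1 sits near -2 in all 3 lines, and the other genes lie between -0.68 and 0.37.

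Npepps, Rnpepl1, Rnpep and Erap1 belong to another zinc aminopeptidase family, and the first 2 of these 4 were lowest in it. Npepps, the puromycin-sensitive aminopeptidase of the cytosol, was at 11.29, 11.11 and 10.91 in Vehicle and at 10.61, 10.62 and 10.38 in Tamoxifen arrays. Rnpepl1, a homolog of aminopeptidase B, was at 10.73, 10.64 and 10.71 in Vehicle and at 10.16, 10.25 and 10.29 in Tamoxifen arrays. Neither gene's groups overlapped. The fitted difference of Npepps was -0.57 ± 0.06 (SE), which left 67.5% of the Vehicle intensity, with 62.3%, 71.0% and 69.4% in the single lines. For Rnpepl1 it was -0.46 ± 0.06, which left 72.6%, with 67.5%, 76.1% and 74.5%. In both genes line 14843 had the largest decrease of the 3.

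Rnpep and Erap1 had smaller values. Rnpep, aminopeptidase B, which removes basic residues, was at 11.00, 11.29 and 11.04 in Vehicle and at 10.91, 10.91 and 10.65 in Tamoxifen arrays. Its groups did not overlap, but the lines were uneven, at -0.08, -0.38 and -0.39, and the fitted difference was -0.28 ± 0.08 (SE). Erap1, which trims peptides in the endoplasmic reticulum for MHC class I, was at 10.54, 10.64 and 10.78 in Vehicle and at 10.42, 10.48 and 10.69 in Tamoxifen arrays. Its groups overlapped although each line was lower, by -0.12, -0.16 and -0.09, and the fitted difference was -0.12 ± 0.05 with a 95% interval from -0.25 to 0.00.

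The last 3 members, Metap1, Xpnpep1 and Dnpep, did not share a direction. Metap1, a methionine aminopeptidase that removes the first methionine of new proteins, was at 11.20, 11.29 and 11.22 in Vehicle and at 10.88, 10.96 and 11.04 in Tamoxifen arrays. Its groups did not overlap, and the fitted difference was -0.27 ± 0.06 (SE). Xpnpep1, which cleaves before a proline, was at 10.26, 10.33 and 10.45 in Vehicle and at 10.63, 10.52 and 10.57 in Tamoxifen arrays. It was the 1 member that was higher in every line, by 0.37, 0.19 and 0.12, with a fitted difference of 0.22 ± 0.07. Dnpep, which removes acidic residues, was at 9.37, 9.50 and 9.53 in Vehicle and at 9.45, 9.46 and 9.60 in Tamoxifen arrays. Its groups overlapped, and its fitted difference of 0.03 ± 0.05 had a 95% interval from -0.10 to 0.17.

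Counted over the family, 6 of the 9 measured members were lower in all 3 lines, 1 was higher in all 3 and 2 were mixed. The shares of all tested genes with these patterns were not counted, so nothing is read from these numbers. Groups did not overlap for 5 members lower in Tamoxifen arrays and for 1 higher, where 11.5% and 12.2% of all tested genes were separated in those directions. In the limma fit over all 13956 genes with line as a block, 3 members passed a Benjamini-Hochberg adjusted p of 0.05. These were Npepl1, Npepps and Rnpepl1, all lower, where 4.93% of all tested genes were called lower and 6.23% in either direction. Since the group was put together around this contrast, nothing is read from that count. The median difference was -0.27 over the 9 members and -0.20 without Npepl1, against 0.03 over all tested genes. Without line as a block Npepps was no longer called, at an adjusted p of 0.072, while Npepl1 and Rnpepl1 were, where 2.11% of all tested genes were called and 1.97% were called lower. Without line 14844 the count fell to 1, Npepl1, and Npepps and Rnpepl1 gave adjusted p-values of 0.082 and 0.10 at differences of -0.61 and -0.50. Over all alternatives run, the adjusted p spanned 0.0069 to 0.082 for Npepps and 0.011 to 0.10 for Rnpepl1. Centring each array on its median added Metap1 to the calls, at an adjusted p of 0.046, and leaving out line 14843 added Rnpep, at 0.049. Over the alternatives these 2 spanned 0.046 to 0.26 and 0.049 to 0.36.

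**Figure D4:**
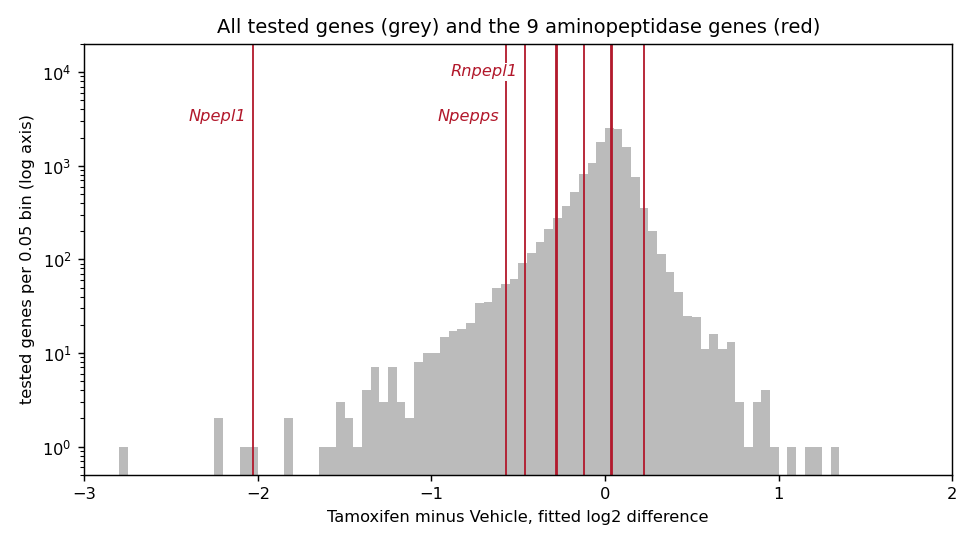
Histogram of the fitted log2 difference, Tamoxifen minus Vehicle, of 13956 tested genes in bins of 0.05 with a log count axis, and the 9 aminopeptidase genes as red lines. Npepl1 at -2.03 lies in the sparse lower tail, Npepps at -0.57 and Rnpepl1 at -0.46 lie on the lower flank, and the other 6 lie within 0.3 of 0.

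Differences between the leukemias had no part in choosing the genes and could be tested. By limma's moderated F test of the line terms, 0 of the 9 members differed between lines after adjustment over all tested genes, with adjusted p-values from 0.13 to 0.82. For comparison, 3.11% of all tested genes did. At an unadjusted p under 0.05 there were 4, namely Lap3, Npepps, Erap1 and Npepl1, where 19.3% of all tested genes were. The range between line means was 0.06 to 0.34 over the members, with a median of 0.24, against a median of 0.14 over all tested genes. These medians were not matched for level, so nothing is read from them.

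Lap3 had the widest range, with line 14843 lowest. Its line means were 10.28 ± 0.07, 10.62 ± 0.06 and 10.55 ± 0.07 in lines 14843, 14844 and 14846 (SD over the Vehicle and Tamoxifen array of each line), with an unadjusted p of 0.010 and an adjusted p of 0.13 by limma. Npepps had line means of 10.95, 10.86 and 10.64, so line 14846 was lowest, at an adjusted p of 0.17. Erap1 had 10.48, 10.56 and 10.73, with line 14846 highest, also at 0.17. Npepl1 had 9.59, 9.72 and 9.83 at an adjusted p of 0.21, and its range between lines of 0.24 was small beside its difference between treatments. For Lap3, Erap1 and Dnpep the range between lines exceeded the size of the difference between treatments, as it did for 67.9% of all tested genes. The order of the lines was the same in Vehicle and Tamoxifen arrays for 3 of the 9 members, Npepl1, Erap1 and Dnpep, and for 29.7% of all tested genes. In these 3 genes line 14843 was lowest and line 14846 highest under both treatments.

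**Figure D5:**
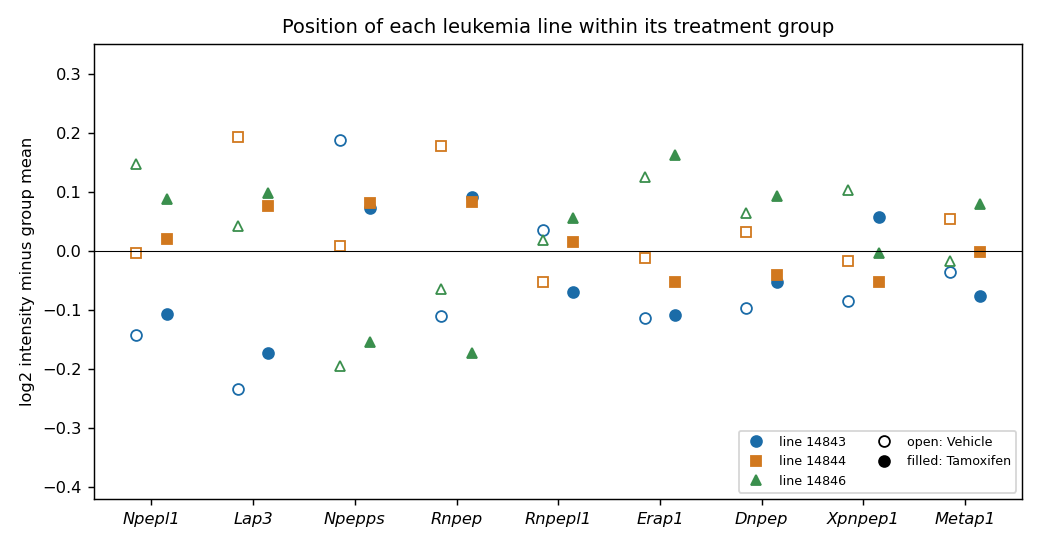
Log2 intensity of each array minus the mean of its treatment group, for 9 aminopeptidase genes; symbols and colours mark the line, open symbols Vehicle and filled symbols Tamoxifen arrays. Line 14843 is lowest for Lap3 and Npepl1 under both treatments, and line 14846 is lowest for Npepps under both.

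Genes that work beside the aminopeptidases were described from 6 lists, and few of their members were called. Of 104 listed genes 87 were tested, and 2 were called lower and 0 higher by limma, where 4.93% and 1.3% of all tested genes were. The median difference of the 87 genes was 0.01, against 0.03 over all tested genes. Without the block, and also without any 1 of the 3 lines, 0 of them were called. Counts at an unadjusted treatment p under 0.05 in these lists have no share of all tested genes beside them, and nothing is read from them.

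Other aminopeptidases gave no call. Of 15 listed, 8 were tested and 0 called, with 3 at an unadjusted p under 0.05 in limma. Their differences ran from -0.58 to 0.24 with a median of 0.00. The lowest was that of Cpq, a carboxypeptidase by name, whose groups overlapped. Cpq gave -0.10, -0.23 and -1.42 in lines 14843, 14844 and 14846, with a limma adjusted p of 0.25. The cell surface aminopeptidase genes Anpep and Enpep were among the 7 that were dim. Blmh, the cytosolic bleomycin hydrolase, was higher in each line at a difference of 0.24 ± 0.07 (SE), with a limma adjusted p of 0.13. Pgpep1, which removes N-terminal pyroglutamate, gave -0.25 ± 0.09 at an adjusted p of 0.19.

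Enzymes that cut dipeptides, tripeptides or longer peptides gave 1 call. Of 14 tested dipeptidases and dipeptidyl, tripeptidyl or acylpeptide hydrolases 0 were called by limma, 5 had an unadjusted p under 0.05, and the median was 0.03. Apeh, which releases N-acetylated residues, gave -0.24 ± 0.06 (SE) at an adjusted p of 0.094. Prcp, a lysosomal carboxypeptidase, gave 0.36 ± 0.10 at 0.11. Of 8 tested oligopeptidases 1 was called, and the median was -0.01. That gene was Ece1, the endothelin-converting enzyme, which fell from 10.32, 10.28 and 10.46 to 10.001, 9.997 and 10.09 in lines 14843, 14844 and 14846. Its difference was -0.32 ± 0.05 with a limma adjusted p of 0.028, and 0.073 without the block.

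Upstream of the aminopeptidases, the proteasome showed no call. Of 31 core and 19S regulatory subunits, all tested, 0 were called by limma, 4 had an unadjusted p under 0.05, and the differences ran from -0.14 to 0.20 with a median of 0.01. Psmc5 and Psmc1, both ATPases of the regulatory particle, gave 0.20 ± 0.06 and 0.17 ± 0.05 (SE) at adjusted p-values of 0.11 and 0.13.

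In the pathway that Erap1 serves, 0 of 14 tested genes of MHC class I peptide supply and loading were called by limma, 1 had an unadjusted p under 0.05, and the median was -0.02. Tapbpl, an editor of MHC class I peptides, gave -0.23 ± 0.08 (SE) at an adjusted p of 0.17. Tapbp, which bridges class I molecules and the peptide transporter, was at 10.72, 12.32 and 11.17 in Vehicle and at 10.53, 12.43 and 10.46 in Tamoxifen arrays. It was high in line 14844 under both treatments, and the lines differed with a limma adjusted p of 0.019, while the difference between treatments was -0.26 ± 0.15 at an adjusted p of 0.36.

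Around Metap1, the list of N-terminal protein processing gave 1 call among 14 tested genes, with a median of 0.05. Naa25, the auxiliary subunit of an N-terminal acetyltransferase, fell from 10.54, 10.80 and 10.61 to 10.24, 10.43 and 10.35 in lines 14843, 14844 and 14846. Its difference was -0.31 ± 0.05 (SE) at a limma adjusted p of 0.034, and 0.15 without the block. The other methionine aminopeptidase genes were not called: Metap2 gave 0.01 ± 0.05 and the mitochondrial Metap1d gave 0.05 ± 0.07.

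The 5 tested genes whose levels followed Npepl1 most closely over the 6 arrays had Pearson correlations of 0.996 to 0.998, given as a description, since all 6 points share the same pairs of treatments and lines. They were Aasdhppt, which attaches the phosphopantetheine group to carrier proteins, Eif2ak4, a kinase that senses amino acid shortage, Atxn7l3b, Bcap31, an endoplasmic reticulum membrane protein, and Cul4a, a ubiquitin ligase scaffold. Their differences between treatments were smaller than that of Npepl1. Eif2ak4 had the largest of them at -1.24 ± 0.05 (SE), and its levels were 8.38, 8.42 and 8.60 in Vehicle and 7.18, 7.16 and 7.35 in Tamoxifen arrays. The other 4 gave -0.33, -0.48, -0.22 and -0.59 in the order named, and Bcap31 was not called, at a limma adjusted p of 0.069. The levels of Npepl1 were far apart between the groups and close within them. A high correlation with it therefore mostly restates an even decrease in Tamoxifen arrays, the contrast that chose Npepl1. Spearman correlations of the same 5 genes with Npepl1 were 0.83 to 0.94.

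Next to Npepl1 in the RefSeq gene table lie Stx16 and the pseudogene Vamp7-ps on 1 side, and the long noncoding RNA gene Gm10714 and the microRNA gene Mir296 on the other. Vamp7-ps had no probe set carrying 1 gene symbol in the annotation used here. Stx16, a syntaxin of the Golgi network whose human counterpart is known to give transcripts read through into NPEPL1, was at 10.71, 10.46 and 10.41 in Vehicle and at 10.40, 10.28 and 10.22 in Tamoxifen arrays. It gave -0.22 ± 0.06 (SE) between treatments, and limma's adjusted p was 0.084. Gm10714 gave 0.08 ± 0.06 at an adjusted p of 0.43, and Mir296 gave 0.20 ± 0.05 at 0.079. None of the 3 measured neighbours passed the threshold.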

How the data were processed

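Each of the 6 samples was measured on 1 one-colour Affymetrix array. Total RNA was taken with Trizol, and 200 ng was labelled with biotin, per the labels' protocols. The authors deposited linear intensities per probe set. The submitters' processing notes name Affymetrix Expression Console 1.1 and RMA as the tools and no further setting. RMA corrects background and equalises intensity distributions between arrays, so a shift of all RNA would not be seen. That the scale is linear was inferred from medians of 202 to 208 per array. Correlations between arrays were 0.991 to 0.996. Arrays have no read depth, and their number limits the precision.

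The log2 of each intensity was taken here. Of 35556 probe sets, 21789 carried 1 gene symbol in the platform annotation, 1621 carried several and 12146 were unnamed here; only the first were used. The probe set with the highest mean stood for each gene, and each aminopeptidase gene had 1. Genes with a mean at or above the 30th percentile, a log2 level of 6.70, were tested. Limma 3.58.1 in R 4.3.3 was fitted with treatment and line as terms (eBayes defaults, two-sided p, Benjamini-Hochberg adjustment, threshold 0.05), and called means past that threshold. The same leukemia gave both arrays of a line, which is why line was a block. Within lines 14843, 14844 and 14846 the deviations of both arrays from their group means had correlations of 0.64, 0.68 and 0.68. The code of the fit was run on data simulated from the fitted model itself, which does not check the model against these arrays. Promoter windows came from a RefSeq table of GRCm38.p6.

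The genes, lists and tests were chosen with earlier results of these data known. Besides the 10 genes, the rule named up to 4 called genes per list, or else the 2 with the smallest p, the 5 genes most correlated with Npepl1, its nearest neighbours, 2 on each side, and Zfx. Metap2, Metap1d, Anpep, Enpep, Cpq, Cd3e, Ptcra, Cd2, Csf1r, Ctss, Itgam and Lyz2 are named outside that rule, after their values were seen. Alternatives changed the block, the filter, the normalization, the probe set rule, the log scale, the eBayes settings and the lines used. No protein sequences were used here.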

Additional observations from a re-analysis of the deposited data

Results flagged for a closer look

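Of 39 named genes that were checked, 12 had treatment differences of opposite signs among the lines. Each line gave 1 pair of arrays, so this was not tested, and the share over all tested genes was not counted. Anpep, Enpep and Csf1r, which were dim, are among the 12. Values below are in the order of lines 14843, 14844 and 14846 on the log2 scale. Among the aminopeptidases, Lap3 gave 0.10, -0.08 and 0.09, a range of 0.18, and Dnpep gave 0.08, -0.04 and 0.06, a range of 0.12. The range was 0.060 for Metap2, 0.25 for Metap1d, 0.22 for Anpep and 0.21 for Enpep. Tapbp gave -0.19, 0.12 and -0.71, a range of 0.83. Gm10714, beside Npepl1, had a range of 0.16, and Zfx one of 0.16, at -0.01, 0.08 and 0.15. Among the markers Cd3e had a range of 0.098 and Csf1r one of 0.11. Ctss had the widest, 1.26, at 1.25, 0.63 and -0.01.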

How the results depend on the processing

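The gap between Npepl1 and the median of the other measured members ranged from -1.87 to -1.79 over all alternatives, against -1.83 as reported. Changing the block, the filter, the centring, the probe set rule or the eBayes settings could not move it, so it stayed at -1.83 there. Only repeated quantile normalization, the other log scale and leaving out a line could change this gap. Genes called between treatments numbered 870, but 295 without line as a replicate block, and from 70 to 669 when a line was left out, lowest without line 14844 and 498 without line 14843. Members called numbered 3, and from 1 to 4 when a line was left out. Without the replicate block they numbered 2, Npepl1 and Rnpepl1. Related genes called numbered 2, but 0 without the replicate block, 1 after quantile normalization was repeated, and 0 whichever line was left out. The fit without 1 line has fewer samples and residual degrees of freedom, and for the other settings the cause was not tested. Genes differing between lines numbered 434, and from 193 to 455 when a line was left out, with 193 without line 14844 and 264 without line 14846, and 0 members in each of the fits with line terms. Centring arrays on the median of all probe sets was added after the data were seen; it gave 935 calls and added Metap1, as did centring on named genes and the trend and robust settings of eBayes. No member changed direction under any of these alternatives. No probe set detection values were used here, so signal over background is judged only by the dim filter.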
